A study of Xenopus tropicalis with 2 samples.

Results

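Thyroid hormone receptor (TR) binding was examined at 9 genes of the Id and proneural basic helix-loop-helix (bHLH) system: id1, id2, id3, id4, neurod1, neurog2, hes1, hes5.1 and tcf4. The genes were chosen by name, and a gene counted as having a peak where the peak list held its name with a matching gene description. Of the 9 genes, 4 had at least 1 listed peak (id2, id4, neurod1 and tcf4), out of 5285 genes paired with a peak in all. The tissue was the middle brain of wild-type tadpoles of the frog Xenopus tropicalis, dissected to include hypothalamus, thalamus and preoptic area at metamorphic climax (Nieuwkoop-Faber stage 62). There was 1 library precipitated with a polyclonal antiserum to Xenopus TRs and 1 input library of the same tissue, stage and genotype, which carried no antibody. The labels do not separate the receptor forms that the antiserum recognises, nor say how many animals entered a library. With 1 library of each kind there was no replicate and no test, and every interval below covers counting error only.

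bHLH proteins bind DNA as pairs. Proneural and neuronal factors such as Neurog2 and Neurod1 drive neural progenitors towards the neuronal fate by pairing with a widely expressed E protein, of which Tcf4 is one. Id proteins have the helix-loop-helix but lack the basic region that contacts DNA, so they hold E proteins in pairs that cannot bind. Hes proteins such as Hes1 are repressors, often induced by Notch signalling, that keep proneural genes off in progenitors. TRs are nuclear receptors that act on chromatin with and without hormone, and thyroid hormone controls both progenitor division and neuronal differentiation in the metamorphosing tadpole brain.

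Peaks were listed at the Id genes id2 and id4, at the E protein gene tcf4 and at the neuronal factor gene neurod1. None was listed at the Id genes id1 and id3, at neurog2, or at the repressor genes hes1 and hes5.1. Between them id2, id4, neurod1 and tcf4 held 13 peaks, all with the summit inside the gene. Fold over background at the summit, the authors' value, ran from 2.51 to 5.94 with a median of 4.24, against a median of 4.06 (range 2.16 to 36.3) for all 6302 peaks of the list. The peaks at these genes were thus of ordinary height. A listed peak was not rare either: 29.8% of 15627 named protein-coding genes had 1, beside 4 of these 9. Several peaks in 1 gene were found at 3 of the members. The genes id2, id4 and tcf4 each had 3 or more, while 1.47% of the named genes had 3 or more, and the membership of the group was settled with id2 and id4 already known to have peaks.

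**Figure D1:**
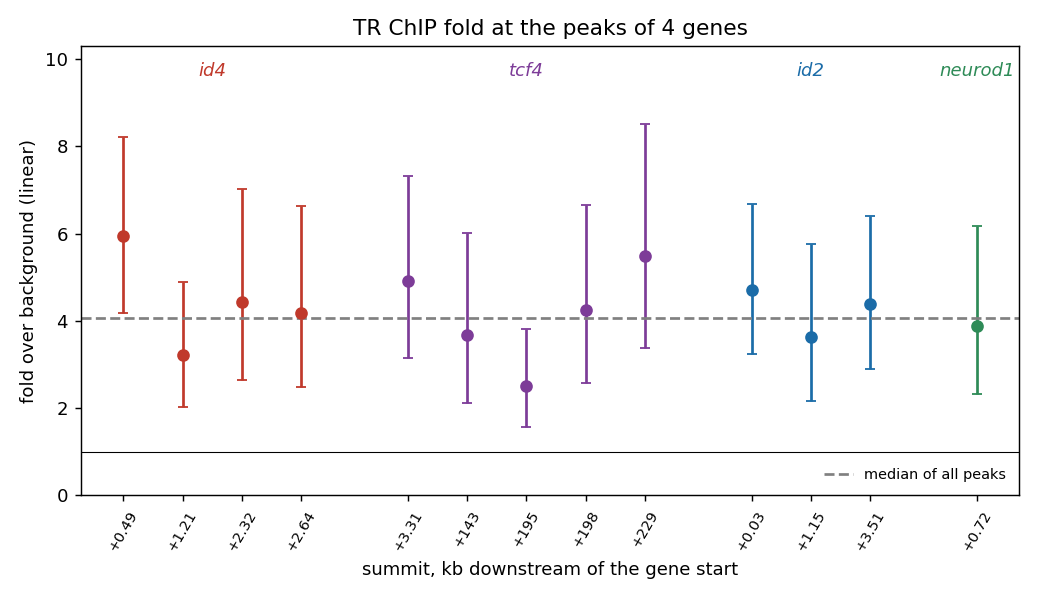
Fold over background at each of the 13 peaks (linear scale), ordered within each gene by the distance of the summit from the gene start. Bars are exact 95% Poisson intervals on the ChIP fragments, and the dashed line marks the median of all peaks, 4.06. The points lie on both sides of that line, from 2.51 in tcf4 to 5.94 at id4.

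The gene id4 codes for an Id protein found in neural progenitors and in astrocyte-like cells of the vertebrate brain. On chromosome 6 it had 4 listed peaks inside 3104 bp (47657161 to 47660264, coordinates as deposited; the gene, on the minus strand, runs from 47654872 to 47660085). The peak over the gene start, 998 bp wide (47659267 to 47660264), had a fold of 5.94 (95% interval 4.19 to 8.20) from 35 ChIP fragments over an expected background of 5.06, with its summit 495 bp into the gene. Its fold exceeded 87.8% of all peaks and its width 97.8% of them. The next peak, 717 bp wide (47658315 to 47659031), had the lowest fold of the 4, 3.22 (2.02 to 4.88), from 20 fragments over 5.53. The remaining peaks, with summits 2.32 kb and 2.64 kb into the gene, had folds of 4.43 (2.64 to 7.03) and 4.17 (2.49 to 6.63), each from 16 fragments. Gaps of 235, 410 and 97 bp separated neighbouring peaks from the gene start inward. The last gap was smaller than the narrowest peak of the list, 211 bp, and whether neighbouring peaks are separate binding sites was not tested. The start peak was the highest, but its interval overlapped those of the other 3.

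The peaks of id4 filled 41.9% of its gene body of 5.21 kb. Of 668 genes with a peak and a length within 1.5 times that of id4, 6 had 4 or more peaks, and the median share of the gene body under a peak was 3.02%. Chosen after their values were seen, the others of the 6 were sox4 with 6 peaks, npas4 with 5, and actg1, marcks and klf6 with 4 each. Gene length gives the setting for this: of the named genes up to 6 kb long, 26.3% had a peak and 0.595% had 4 or more.

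The gene id2 codes for an Id protein that holds back differentiation in many tissues. On the plus strand of chromosome 5 (gene 133400309 to 133404615) it had 3 peaks, spread from its start to near its end. The peak over the start (133400182 to 133400607) had a fold of 4.72 (3.23 to 6.67) from 30 ChIP fragments over 5.57, with the summit 30 bp from the gene start. A peak in the middle, with its summit 1.15 kb in (133401333 to 133401731), had a fold of 3.63 (2.16 to 5.76) from 16 fragments over 3.69. A wider peak of 642 bp towards the end, with its summit 3.51 kb in (133403340 to 133403981), had a fold of 4.40 (2.90 to 6.41) from 25 fragments over 4.92. Start and end of the gene thus had folds that could not be told apart, and the peak between them had an interval that overlapped both. Peaks covered 31.1% of the gene body of 4.31 kb, and of 519 genes with a peak and similar length 16, id2 included, had 3 or more peaks.

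All 3 peaks of id2 were also paired with mboat2, a membrane acyltransferase gene, because the deposited gene model of mboat2 spans 284 kb of the opposite strand and encloses id2. The start of that model lies 211 kb from the start of id2. In the reference gene table, of another assembly, mboat2 is 93.7 kb long, does not enclose id2, and kidins220 lies between them. Given to the nearest gene start alone, all 3 peaks went to id2. Another peak (133404687 to 133405118; fold 3.51, 2.16 to 5.45, from 18 fragments) had its summit 101 bp past the end of id2 and is listed under mboat2 alone. Counted with it, peaks no more than 2 kb apart formed a group of 4 over 4.94 kb at id2. Groups of 4 or more made up 0.897% of the 5577 groups and single peaks in the list, the group of 4 at id4 among them.

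**Figure D2:**
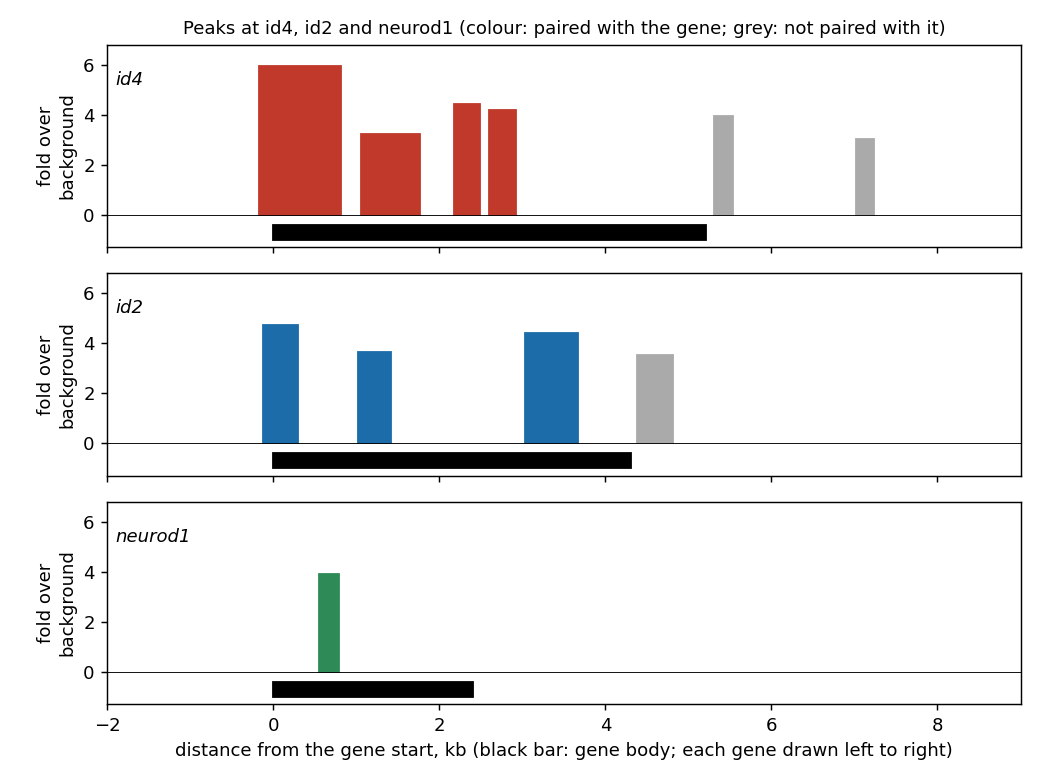
Peaks around id4, id2 and neurod1, drawn by distance from the gene start in kb with each gene running left to right; bar width is peak width, bar height is fold over background, and the black bar is the gene body. Coloured peaks are paired with the gene in the deposited list, and grey ones are not. Peaks run along the first 3 kb of id4 and from start to end of id2, while neurod1 has 1 narrow peak.

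The gene neurod1 codes for a bHLH factor of neuronal differentiation and survival. It was the one proneural or neuronal factor among the members with a listed peak. That peak, 245 bp wide on chromosome 9 (57482496 to 57482740; gene on the plus strand, 57481946 to 57484354), had its summit 721 bp into the gene. Its fold of 3.89 (2.32 to 6.17) came from 16 ChIP fragments over 3.37, below the median of all peaks in fold and at percentile 11.7 in fragments. No other peak lay within 100 kb of neurod1.

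The E protein gene tcf4, with roles in neuronal differentiation, had 5 peaks along 264 kb of the plus strand of chromosome 1 (189608183 to 189872066), none of them within 1 kb of the deposited gene start. The first (189611334 to 189611848) had its summit 3.31 kb in, with a fold of 4.91 (3.16 to 7.32) from 22 fragments over 3.69. Next came a peak 143 kb in (3.68, 2.13 to 6.01, from 14 fragments). A close pair followed at 195 and 198 kb, with 2183 bp between them: the former had the lowest fold of all 13 peaks (2.51, 1.58 to 3.81, from 20 fragments over 7.37), and the latter reached 4.24 (2.57 to 6.65, from 17 fragments). The highest fold of the gene, 5.495 (3.37 to 8.52), lay 229 kb in (189836811 to 189837246), 86.7% of the way along it, and came from 18 fragments over the lowest background of the 13 peaks, 2.46. Gene starts other than the deposited one were not distinguished, and whether a peak inside tcf4 lies at the start of a shorter transcript was not tested. Of 243 genes with a peak and a length within 1.5 times that of tcf4, 13 (5.35%), tcf4 included, had 5 or more peaks. Among all 423 named genes over 200 kb, with or without a peak, 2.60% had 5 or more, and 45.4% had at least 1.

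**Figure D3:**
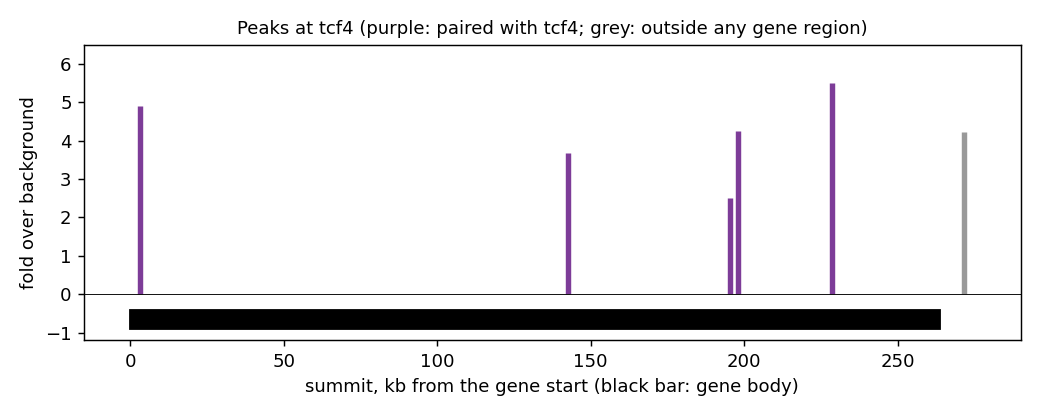
Summits of the peaks along tcf4, by distance from the gene start in kb and by fold over background (linear scale); the black bar is the gene body of 264 kb. The peaks paired with tcf4 stand near its start and in its second part, and the grey peak lies past its end, outside any gene region.

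Few of the summits lay at a gene start. Of the 13 peaks, 3 (23.1%) had the summit within 1 kb of the gene start, those of id2, id4 and neurod1, against 3382 of the 5214 peaks in gene regions (64.9%). The other 10 lay deeper in id2, id4 and tcf4, so this share reflects 3 genes and not 10 independent sites. No test of the difference was made.

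The depth behind the 13 peaks was low. ChIP fragments at the summit ranged from 14 to 35 with a median of 18, against a median of 24 (range 8 to 172) for all peaks. Of the 78 pairs of peaks that can be formed, 1 had fold intervals that did not overlap, the start peak of id4 and the peak of tcf4 at 195 kb. Those intervals cover the ChIP fragments alone. With the counting error of both libraries, the ratios of these peaks without the added pseudocount had intervals of 4.26 to 11.2 and 1.26 to 6.09, which overlapped. The order of the genes by fold was therefore not settled at this depth. At 12 of the 13 peaks the background lay on whole control tags. The tcf4 peak of highest fold had 4 tags in a window of 211 bp. Its ratio of 7.32 without the added pseudocount had an interval of 2.41 to 29.8 once the counting error of both libraries was included. The same ratio at the start of id4 was 6.92 (4.26 to 11.2), with 39 tags in a window of 1 kb. The start of id2 gave 5.38 (3.26 to 8.78) and neurod1 gave 4.75 (2.38 to 9.19), with 43 and 26 tags, also in windows of 1 kb. Tag counts from windows of unlike width cannot be compared directly.

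**Figure D4:**
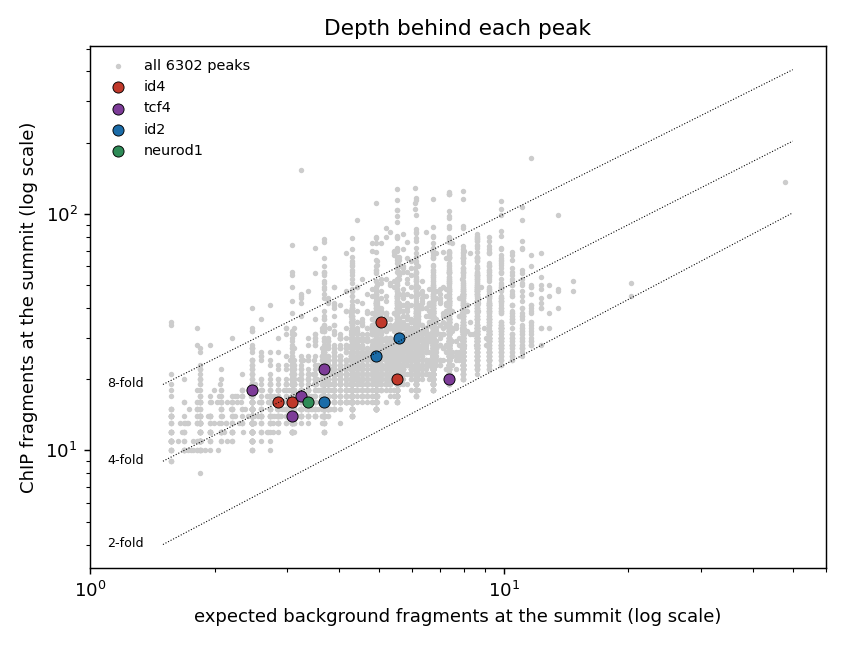
ChIP fragments at the summit against the expected background fragments, both on log scales, for all 6302 peaks (grey) and the 13 peaks of the 4 genes (coloured); dotted lines mark equal fold. The coloured points lie between 14 and 35 ChIP fragments, with a median of 18 against 24 for all peaks, and with folds between 2.51 and 5.94. The highest of them in fragments, the start peak of id4, stands at percentile 82.1 of all peaks.

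No peak was listed for the other 5 members: id1 and id3, which code for Id proteins; neurog2, which codes for a proneural factor; and hes1 and hes5.1, which code for Hes repressors. A missing row says that no peak passed the authors' threshold in a gene region listed under that name, and a peak listed under another name would be missed. To see whether a peak under another name might belong to them, the nearest neighbours with a peak were taken from the gene order of the reference table, which held id3, neurog2, hes1 and hes5.1. The neighbourhood of id1, which was not matched in that table, was not examined. Between the neighbours of id3 (sesn2 and rcc1, 391 kb apart) and those of hes5.1 (spsb1 and rer1, 504 kb apart) no peak was listed. Between those of neurog2 (ap1ar and larp7, 220 kb apart) 1 peak had its summit, with a fold of 16.2, and it was paired with larp7 and with a gene listed as zgrf1. Between those of hes1 (mccc1 and lsg1, 747 kb apart) there were 2 peaks, 1 paired with mccc1 and 1 outside any gene region (5: 96950920 to 96951199; fold 4.23, 2.77 to 6.21, from 24 fragments). Its distance from hes1 was not measured, since hes1 has no coordinates in the deposited list.

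Genes related to the members were counted in lists of bHLH and pathway genes. All 3 E protein genes had peaks: beside tcf4 these were tcf12, with 2 peaks and a highest fold of 6.44 (4.61 to 8.78) at 110 bp upstream of its start, and tcf3, with 3 peaks within 1 kb of its start and a highest fold of 3.78 (2.52 to 5.47). By fold, the highest peaks of both lay within 1 kb of the gene start, where tcf4 had no peak by its deposited start. Which peak of tcf4 was highest was not settled. The one 3.31 kb in had 22 fragments and the one 229 kb in had 18, and their fold intervals overlapped. Of 3 Id genes matched by name in the reference table, 2 had peaks, id2 and id4, while id1 was not matched and is left out of this share. At 3 genes a list, the exact intervals on these shares reach from 29.2 to 100% and from 9.43 to 99.2%. Even a full count of 3 genes has an interval that includes the background of 29.8%, so these lists cannot show a difference from it.

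The list of proneural and neuronal bHLH genes was broad and also held msgn1, ascl2, ascl3 and olig1, which had no listed peak. Peaks were found in 4 of its 24 genes (16.7%, exact 95% interval 4.74 to 37.4%), which includes the background of 29.8%. Besides neurod1 these were neurod2, which acts in neuronal maturation (5.06, 2.80 to 8.55, from 12 fragments, 81 bp upstream of the start), neurod6, a related factor (4.10, 2.52 to 6.36, 88 bp upstream), and atoh8 (4.90, 3.31 to 7.01, 18.5 kb into the gene). The proneural genes atoh1, neurog1, neurog2 and neurog3, picked out after the values were seen, had no listed peak. The list of Hes and Hey repressor genes had peaks in 3 of 21 cases (14.3%, 3.05 to 36.3%). It also held helt, bhlhe40 and bhlhe41, which had no listed peak. The genes with a peak were hes6.1 (4.64, from 35 fragments, 427 bp downstream of the start), hey1 (4.20, 2.78 to 6.13, 172 bp downstream) and hes4 with 2 peaks (highest fold 3.89, from 22 fragments). Neither list had a share outside the counting error of the background.

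The Notch pathway had peaks in 14 of 34 genes (41.2%, 24.6 to 59.3%). The highest folds were at aph1a, a subunit of the gamma-secretase that cleaves Notch (7.96, 5.97 to 10.4, 20 bp downstream of the start), the Notch glycosyltransferase gene rfng (6.57, 4.96 to 8.53, a peak shared with gps1), and the coactivator genes maml1 (4.90, 3.38 to 6.89, shared with sap30bp) and maml3 (4.75, 3.06 to 7.09, one of 6 peaks). The BMP pathway, an inducer of Id genes in many tissues, had peaks in 7 of 23 genes (30.4%, 13.2 to 52.9%), led by the receptor gene acvr2b with 4 peaks (6.18, 4.23 to 8.73), znf423, which codes for a partner of Smads (5.38, 3.76 to 7.50), the signal transducer gene smad1 (4.34, 2.79 to 6.47) and acvr2a (3.84, 2.33 to 6.02). Both intervals included the background.

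**Figure D5:**
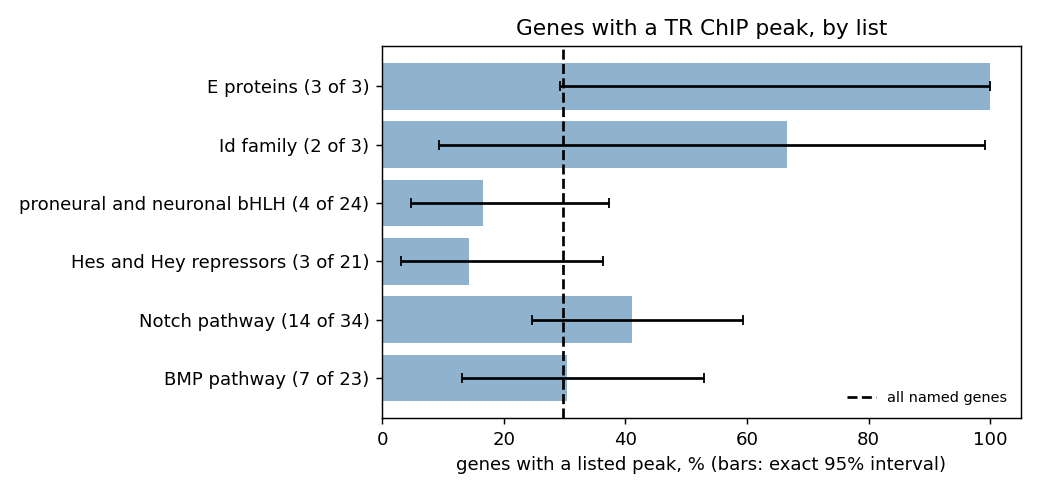
Share of genes with a listed peak in each list, in percent, with exact 95% binomial intervals; the dashed line is the 29.8% of all named protein-coding genes. The intervals of all lists include that line, and the first 2 lists hold 3 genes each, too few for any count to exclude it.

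Over all lists, 29 of 100 related genes that are not members had a peak (29.0%), close to the background. Among the 100 genes, 4 (4%) had 3 or more peaks (acvr2b, maml3, smad1 and tcf3), beside 1.47% of all named genes. That difference was not tested. The 50 peaks of all 29 genes had a median fold of 3.88 and the summit within 1 kb of a gene start in 58.0% of cases. The members' peaks had 23.1%, but that share counts peaks and not genes, and 5 of the 13 peaks lay in tcf4. By gene, the highest peak lay within 1 kb of the start at id2, id4 and neurod1, and not at tcf4. It did so at 11 of the 14 Notch pathway genes with a peak, and at 4 of the 7 of the BMP pathway. No difference in position by gene was thus shown.

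Peaks were also counted at marker genes of cell types. All 6 neuronal markers had a listed peak (elavl4, gria2, snap25, stmn2, syt1 and tubb3), beside 29.8% of all named genes. No test of this count was made, and a peak at a marker gene was not used to name the cells bound. The markers were set down beside the lists, which were chosen with earlier results of these data known. The count is therefore no independent support for binding at neuronal genes. Gene length was not matched either: 26.3% of named genes up to 6 kb and 45.4% of those over 200 kb had a peak. The counts of 2 of 5 radial glia markers (pax6 and sox2) and of 0 of 4 oligodendrocyte, 0 of 2 microglia and 0 of 3 muscle markers are too small to be told apart from the 29.8%. The tissue is a mixture of cell types, so a signal from few cells and a weak signal from many cannot be told apart at any of the genes above.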

How the data were processed

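TR ChIP and input libraries from tadpole brain were compared by the authors, who deposited a list with 7848 peak-gene pairs. MACS2 2.2.6 and BWA 0.7.17 are among the tools named, per the submitters' processing notes. The genome build and the peak threshold are not given in the sources used here. The deposited enrichment is a linear fold ratio, the deposited −log10 values are those of a p-value and its adjusted form, and the deposited score was not used for any result. Coordinates are as deposited. Each peak was paired by the authors with genes whose body or 10 kb upstream it overlaps, per the file headers and name.

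Gene names were taken from the NCBI gene number in the description where one was given (assembly UCB_Xtro_10.0, used for names, gene length and gene order), and otherwise kept only for descriptions from a curated source. ChIP fragments and background were solved from fold and p-value, with 1 added to each as a pseudocount, and gave whole fragments at all 6302 peaks (tolerance 0.0001 in −log10 p). In simulated data 278 of 278 fragment counts were recovered. The background of 64.8% of peaks (8 of the 13 described) lay on steps of 0.6144 fragments, read as 1 control tag in a window of 211 bp, the narrowest peak. That of 32.1% (4 of the 13) lay on steps of 0.130 fragments, 1 tag in a window of 1 kb, and the rest (1 of the 13) on neither. Total depths are not known. Poisson, binomial and ratio intervals are exact at 95% (Clopper-Pearson for shares and for ratios of both counts) and leave out selection of peaks for being high.

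No test was made. Named genes were the 9 members and, per list, the 4 genes with the highest fold. The members and lists were chosen with earlier results of these data known. Python 3.11.15, pandas 2.3.3, NumPy 2.4.6 and SciPy 1.17.1 were used.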

Additional observations from a re-analysis of the deposited data

Results flagged for a closer look

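Peaks that no gene comparison used lay close to 2 of the members. Past the end of id4, outside any gene region, were peaks with summits 139 bp (fold 3.96, 95% interval 2.49 to 6.02, from 20 ChIP fragments) and 1.90 kb away (3.04, 1.84 to 4.77, from 17 fragments). With them, peaks no more than 5 kb apart, a gap chosen after seeing the data, formed a group of 6 over 7.41 kb. Of 5419 such groups and single peaks, 22 were as large. At the gap of 2 kb used above they did not join the group at id4, which stayed at 4 peaks, and 50 of 5577 were as large. No further peak lay within 100 kb of id4. Past the end of tcf4, 1 peak outside any gene region lay 7.68 kb away (4.22, 2.28 to 7.27), from 11 fragments over a background of 1.84.

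The peak with no gene between lsg1 and mccc1, the neighbours of hes1, had a fold of 4.23, close to the median of 4.05 for the 1088 peaks outside gene regions.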

How the results depend on the processing

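With the 1000 strongest peaks by adjusted p-value, 1 member kept a peak (id4) in place of 4, with 1 peak in place of 13; of all named genes 7.67% did. With the 3151 stronger peaks id2, id4 and tcf4 remained with 5 peaks, and the share of genes with a peak became 4.17% for proneural and neuronal bHLH genes and 13.0% for the BMP pathway, beside 18.96% of all named genes with those peaks. Within 2.5 kb of the gene start, a wider window, 6 peaks in place of 3 counted. No share of all peaks in gene regions is given at that width, so the 6 cannot be set against the 64.9% at 1 kb. Ordered by −log10 adjusted p-value, id2 came to rank 2 and tcf4 to rank 3, while id4 stayed first and neurod1 last. Gaps of 1 kb and 5 kb were chosen after seeing the data. A gap of 1 kb left a group of 2 peaks at id2, and 7.68% of the 5700 groups and single peaks were then as large. The other 26 of 35 alternatives stayed within 1.5 times or within the counting interval; among them names as deposited, summits in the gene region and the nearest gene start alone kept all 4 members. Motifs in promoters were not analysed here. Depth limits the order of the genes, as folds rested on 14 to 35 ChIP fragments in 1 library.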

Other observations

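The deposited names needed the check against descriptions in this family. Rows named neurod4, bhlhe23, hes5.2, dlc and grem1 carried descriptions of other genes and lay on other chromosomes than the reference table gives for these names. None of these rows was counted as a peak, and the genes of these names stood in their lists as genes without one. The row named neurod4, for example, was described as a Mediator subunit and lay on chromosome 8, while neurod4 is on chromosome 2 of the reference table.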
